A study of Rattus norvegicus with 84 samples.

Results

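Known microRNAs (miRNAs) were compared in extracellular vesicles (EVs) from the brains of rats 10 days after ischemic stroke and from the brains of healthy rats. The members were every row of the miRNA count table that carried a known rat miRNA name, which gave 699 of 5489 rows, and the remaining rows were predicted miRNAs. Of the 699, 609 had at least 1 count in the 6 libraries and 350 passed the filter on low counts and were tested. The animals were adult male wild-type Sprague-Dawley rats. The control rats at 10 days (n = 3) had a transient occlusion of the right middle cerebral artery and received saline through the common carotid artery on day 3, and they carried no transplanted cells. The healthy rats (n = 3) had neither treatment, and no sham operation is given, so ischemia, surgery and injection cannot be told apart. The same series holds control rats at 4 and 31 days and rats given human neural stem cells (hNSCs), 3 per group, with plasma EVs of the same design, and these groups are used only where they place the change at 10 days. EVs were isolated from a small piece of ipsilateral hemisphere tissue after enzymatic dissociation, ultracentrifugation and size exclusion chromatography, so a library averages the vesicles of the cells in that piece.

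miRNAs are short RNAs that are cut from hairpin precursors and guide Argonaute proteins to messenger RNAs, mainly by pairing of the seed, bases 2 to 8 of the mature strand. A hairpin has a 5p and a 3p arm, and usually 1 arm is retained more than the other. Vesicles carry a part of the miRNA pool of the cell that releases them, so that miR-124 and miR-9 are known from neurons and neural progenitors, miR-142 and miR-223 from blood cells and microglia or infiltrating leukocytes, and miR-451 from red cells. After ischemia, the brain hemisphere loses neurons while microglia, macrophages and astrocytes react, and several miRNAs of the innate immune response, such as miR-155, miR-146a and miR-21, are known to be induced in such cells.

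The mature sequences below carry the results that follow, and they are printed as deposited, in DNA letters, with the seed in capitals. Each of them was identical to the RefSeq entry of the same name. The first set holds miRNAs of immune and stromal cells that were called higher in the control group, together with miR-146b-5p, which was not called.
miR-142-3p: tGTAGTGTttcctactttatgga
miR-142-5p: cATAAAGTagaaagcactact
miR-155-5p: tTAATGCTaattgtgataggggt
miR-146a-5p: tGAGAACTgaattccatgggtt
miR-146b-5p: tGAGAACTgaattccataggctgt
miR-223-3p: tGTCAGTTtgtcaaatacccc
miR-21-5p: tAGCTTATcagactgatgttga
miR-199a-3p: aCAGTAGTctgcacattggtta
miR-199a-5p: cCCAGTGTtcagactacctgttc
miR-146a-5p and miR-146b-5p share the seed GAGAACT and are shown together because the first was called and the second was not.

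Another set shows seed families, the first 2 of which hold members that were called and members that were not, while the last pair had identical counts. The miRNAs of a family share a seed and hence most predicted targets.
miR-190b-5p: tGATATGTttgatattaggtt
miR-190a-5p: tGATATGTttgatatattaggt
miR-152-3p: tCAGTGCAtgacagaacttgg
miR-148a-3p: tCAGTGCActacagaactttg
miR-148b-3p: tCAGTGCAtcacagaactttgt
miR-450a-5p: tTTTGCGAtgtgttcctaatgt
miR-450b-5p: tTTTGCGAtgtgttcctaata

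The last set holds miRNAs that were lower in the control group, from the imprinted Dlk1-Dio3 locus and from the neuronal miR-132/212 hairpins, together with the 3p arms of the latter.
miR-369-5p: aGATCGACcgtgttatattcgc
miR-382-5p: gAAGTTGTtcgtggtggattcg
miR-770-3p: gTGGGCCTgacgtggag
miR-541-5p: aAGGGATTctgatgttggtcacact
miR-132-5p: aCCGTGGCtttcgattgttact
miR-132-3p: tAACAGTCtacagccatggtcg
miR-212-5p: aCCTTGGCtctagactgcttactg
miR-212-3p: tAACAGTCtccagtcacggcca

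The healthy libraries held between 295844 and 595431 unique molecular identifier (UMI) counts of known miRNAs, and the control libraries held between 610657 and 1395886. Depth therefore differed with the group, and 3 counts corresponded to between 1.97 and 10.2 CPM (counts per 1e6 counts). CPM values below are relative to the known-miRNA counts of the library after edgeR's TMM scaling (trimmed mean of M values), and log2 fold changes are control at 10 days over healthy. Where 6 levels follow each other, the first 3 are healthy rats 1 to 3 and the last 3 control rats 1 to 3. A miRNA was called when edgeR's adjusted p was under 0.05 and the change exceeded 1.5-fold. The first principal component of the 6 libraries, with 57.0% of the variance, placed control rat 1 between the healthy rats and the other control rats, and the second, with 24.8%, set healthy rat 2 apart. Brain markers were present in every library, with miR-9a-5p at 72648, 79344 and 72037 CPM in healthy rats 1 to 3 and 68132, 52900.0 and 59267 CPM in control rats 1 to 3. Calls lost when control rat 2 or healthy rat 2 is left out are therefore named beside the results.

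At 10 days after stroke, 68 of the 350 tested miRNAs were called (19.4%), of which 39 were higher (11.1%) and 29 were lower (8.29%) in the control group. The 39 include the pairs miR-129-1-3p and miR-129-2-3p, miR-450a-5p and miR-450b-5p, miR-301a-3p and miR-301b-3p, miR-19a-3p and miR-19b-3p, and miR-23a-3p and miR-23b-3p. Within each pair the counts differed by at most 2.45%, so a pair stands for close to 1 measurement. No such pair was found among the 29 lower. At an unadjusted p under 0.05 with the same fold limit, 108 (30.9%) would pass. The median log2 fold change of all tested miRNAs was -0.03. The control libraries lay wholly above the healthy ones for 57 miRNAs (16.3%) and wholly below for 52 (14.9%). Of the called miRNAs, 37 of 39 higher and 26 of 29 lower showed such separation. Control rat 1 was the control rat nearest to the healthy mean for 34 of the 39 higher and 23 of the 29 lower miRNAs, and control rat 2 was the farthest for 35 and 15 of them. Without control rat 2, 14 miRNAs were called, without control rat 3 36, and without healthy rat 2 36, whereas 96 were called without control rat 1. When the fit was limited to the 6 libraries of this comparison, 11 were called. A further check covered 40 called miRNAs, named for level or size of change or as members with the lowest p in a list. Of these, 9 were still called without control rat 2, 25 without control rat 3 and 22 without healthy rat 2. The 40 were picked from these same data and do not include every called list member. The balance of directions changed to 54 higher and 20 lower without TMM, to 55 and 12 by limma on log2(TPM + 1), which is another test as well as another scaling, and to 121 and 1 when predicted miRNAs were kept, which moved the median of all tested to 0.92. The miRNAs miR-142-3p, miR-142-5p, miR-146a-5p, miR-190b-5p and miR-21-5p were called under each of the 19 alternatives in which their values were recomputed.

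**Figure D1:**
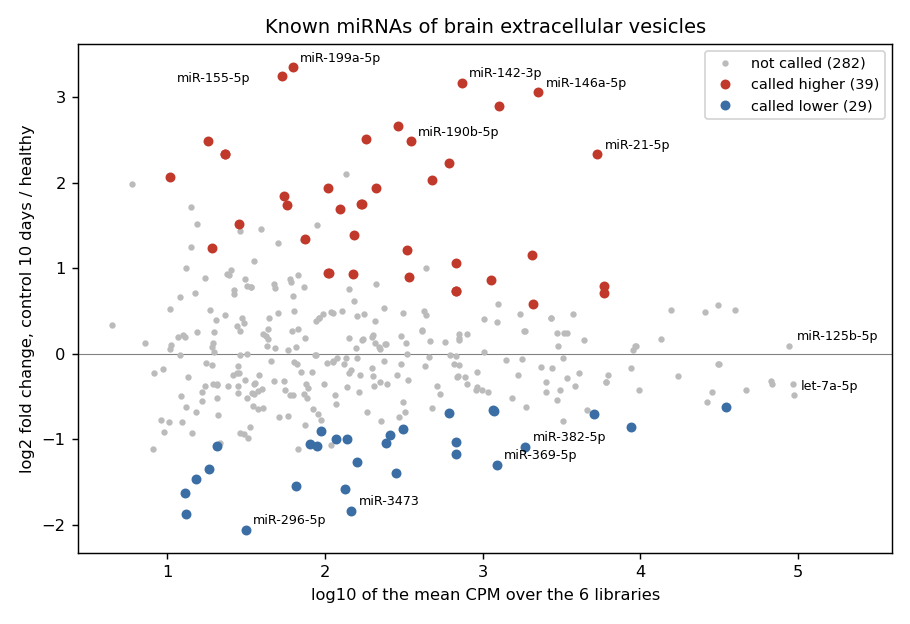
Log2 fold change of the 350 tested miRNAs (control at 10 days over healthy, y axis) against the log10 of their mean CPM over the 6 libraries (x axis). Red points are the 39 called higher, blue points the 29 called lower and grey points the 282 not called. The called changes reach 3.35 upward and -2.05 downward, and the 5 most abundant miRNAs at the right lie between -0.48 and 0.10.

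None of the 5 most abundant miRNAs was called. let-7a-5p, of the let-7 family that marks differentiated cells, stood at 102387, 133321 and 93817 CPM in the healthy rats and 71498, 89747 and 74231 CPM in the control rats. Its groups did not overlap and its log2 fold change was -0.48 (SE 0.15, adjusted p = 0.0247), which is below the 1.5-fold limit, so it was not called. For let-7c-5p the log2 fold change was -0.35 (SE 0.17, adjusted p = 0.132), for let-7b-5p -0.35 (SE 0.18, adjusted p = 0.173) and for miR-9a-5p -0.31 (SE 0.19, adjusted p = 0.247). miR-125b-5p, an abundant neural miRNA, differed by 0.10 (SE 0.16, adjusted p = 0.684).

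The miRNAs of myeloid cells and inflammation were higher 10 days after stroke. Of 12 listed members, 7 were tested and 6 were called, each of them higher in the control group (85.7%, against 11.1% of all tested). The median log2 fold change of the 7 was 2.66 against -0.03 for all tested. Under every alternative, between 4 and 6 members remained called higher and none lower, with medians between 2.38 and 3.68. The summed level of the list was 3071 to 4075 CPM in healthy rats and 4815 to 27198 CPM in control rats. In a bulk EV library, more vesicles from such cells and more of these miRNAs per vesicle cannot be told apart.

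miR-142, a miRNA of the hematopoietic lineage, rose in both arms. miR-142-3p stood at 126, 193 and 119 CPM in the healthy rats and 509.9, 2073 and 1396 CPM in the control rats, with the lowest control rat well above the highest healthy rat. It was 8.99-fold higher, with a log2 fold change of 3.17 (SE 0.49, adjusted p = 0.000420). The 5p arm stood at 51.2, 77.6 and 107 CPM in the healthy and 201, 712 and 603 CPM in the control rats, and its log2 fold change was 2.66 (SE 0.47, adjusted p = 0.00137). The arms of miR-142 thus moved by similar amounts in the same rats. miR-223-3p, a miRNA of neutrophils and monocytes, stood at 34.1, 70.0 and 53.7 CPM and 76.8, 643 and 212 CPM. Control rat 1 barely exceeded the highest healthy rat, whereas control rat 2 was far above it, and the log2 fold change was 2.51 (SE 0.58, adjusted p = 0.00629). It was 1.49 and not called without control rat 2 (adjusted p = 0.0733 in edgeR).

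miR-155-5p, which is induced in activated macrophages and microglia, was counted 1, 9 and 3 times in the healthy libraries. It stood at 3.41, 17.03 and 7.01 CPM in the healthy rats and 21.7, 181.7 and 87.9 CPM in the control rats, and the log2 fold change was 3.24 (SE 0.79, adjusted p = 0.00913). The healthy values rest on few molecules, and healthy rat 1 lay under the level of 3 counts. The call of miR-155-5p was lost without control rat 2, at a log2 fold change of 2.53 (adjusted p = 0.0603 in edgeR), and in the fit of 6 libraries. miR-146a-5p, a feedback inhibitor of Toll-like receptor signaling, stood at 515, 441 and 493 CPM in the healthy rats and 881, 6934 and 4274 CPM in the control rats. The healthy rats were close together, the control rats spread widely, and the log2 fold change was 3.06 (SE 0.60, adjusted p = 0.00289). Its paralog miR-146b-5p, with the same seed, was the tested member of the list that was not called, at 1108, 1067 and 871 CPM and 815, 1216 and 1071 CPM with overlapping groups. Its log2 fold change was 0.03 (SE 0.18, adjusted p = 0.914), and the difference between the paralogs was not tested. miR-21-5p, which rises in reactive glia and in many injured tissues, stood at 1681, 2203 and 1406 CPM in the healthy rats and 2300.2, 15421 and 9024 CPM in the control rats. It was the most abundant miRNA of the list, control rat 1 sat just above the healthy rats, and the log2 fold change was 2.34 (SE 0.49, adjusted p = 0.00330).

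**Figure D2:**
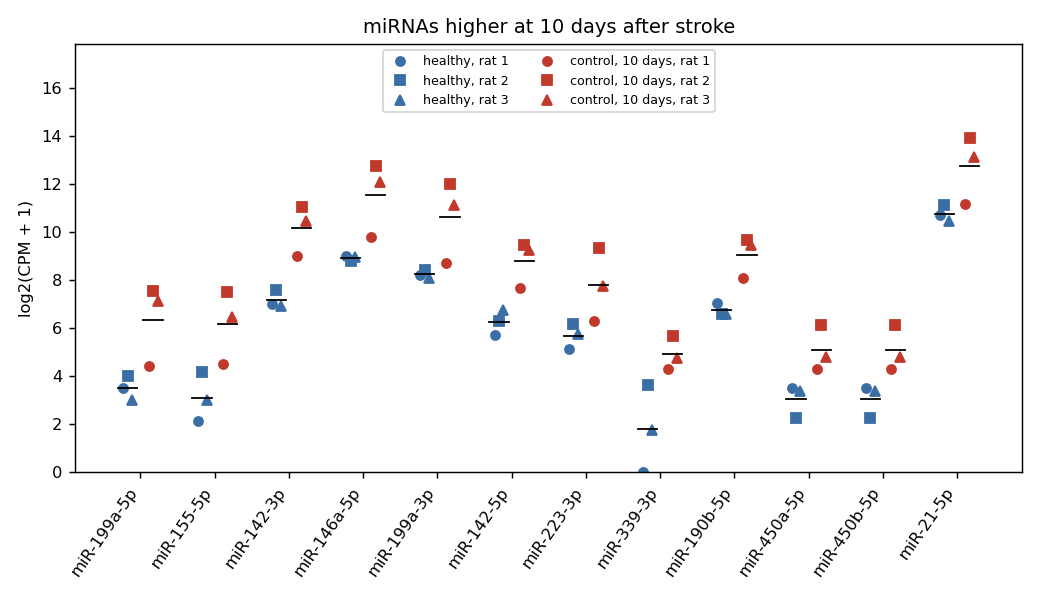
The 12 called miRNAs with the largest rise, non-overlapping groups and a mean of at least 10 CPM, as log2(CPM + 1) in each library (y axis). Blue marks are healthy rats, red marks control rats at 10 days, the shape gives the rat number and the bars are means of the plotted values. Control rat 1 (red circles) lies closest to the healthy rats for each miRNA, for example at 2300.2 CPM of miR-21-5p against 15421 in control rat 2.

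miR-199a, a miRNA of mesenchymal and fibroblast cells, showed the largest fitted change. miR-199a-3p stood at 293, 343 and 271 CPM in the healthy rats and 423, 4130.5 and 2208 CPM in the control rats, and its log2 fold change was 2.90 (SE 0.67, adjusted p = 0.00629). The 5p arm was counted 3, 8 and 3 times in healthy and 14, 137 and 212 times in control libraries, at 10.2, 15.1 and 7.01 CPM and 20.3, 183 and 139 CPM. Its log2 fold change of 3.35 (SE 0.83, adjusted p = 0.0103) rests on control rats 2 and 3, and without control rat 2 neither arm was called. Both tested members of the mesenchyme and fibroblast list were these arms. The smooth muscle and pericyte list, miR-143 and miR-145, had 4 of 4 tested members with positive values, a median of 0.50 and 0 called. In the endothelial list, miR-126a-5p differed by 0.46 (SE 0.19, adjusted p = 0.0813) and miR-126a-3p by 0.18 (SE 0.19, adjusted p = 0.523), and neither was called.

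Some miRNAs outside the cell type lists were also called higher. miR-190b-5p stood at 129.6, 94.6 and 95.8 CPM in the healthy rats and 268, 814 and 693 CPM in the control rats, with every control rat above every healthy rat. Its log2 fold change was 2.48 (SE 0.46, adjusted p = 0.00219). miR-190a-5p, which has the same seed, GATATGT, stood at 764, 541 and 696 CPM and 785, 751 and 740.5 CPM and differed by 0.19 (SE 0.21, adjusted p = 0.548). In the seed family CAGTGCA, miR-152-3p stood at 232, 142 and 194 CPM and 314, 1294 and 699.8 CPM with a log2 fold change of 2.03 (SE 0.42, adjusted p = 0.00309), and miR-148a-3p changed by 1.06 (SE 0.28, adjusted p = 0.0136) but was not called without control rat 2. The third member, miR-148b-3p, stood at 729.8, 804 and 703 CPM and 778, 604 and 659 CPM and differed by -0.13 (SE 0.21, adjusted p = 0.668). miR-190a-5p, miR-152-3p, miR-148a-3p and miR-148b-3p were singled out after their values were seen. Both arms of miR-339 were higher, with 232, 199 and 213 CPM and 384, 1770.0 and 864 CPM for the 5p arm and a log2 fold change of 2.23 (SE 0.45, adjusted p = 0.00289). The 3p arm had 0, 6 and 1 counts in healthy and 13, 37 and 40 counts in control libraries, and its log2 fold change of 2.49 (SE 0.67, adjusted p = 0.0145) rests on healthy values at or near the level of 3 counts and was not called without control rat 2.

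A cluster of neighbouring hairpins that runs from Mir450a1 to Mir322 was higher in the control group. Of its 10 tested mature miRNAs, 10 had positive values and 6 were called higher, against 11.1% of all tested miRNAs. The median log2 fold change was 1.68, and this cluster was chosen after its values were seen. miR-542-3p stood at 44.3, 35.96 and 49.0 CPM in the healthy rats and 85.5, 259 and 151 CPM in the control rats, with a log2 fold change of 1.94 (SE 0.42, adjusted p = 0.00435). miR-503-5p, whose seed is AGCAGCG against AGCAGCA for miR-15b-5p and miR-16-5p, stood at 30.7, 15.1 and 28.0 CPM and 30.4, 135 and 91.8 CPM, so that control rat 1 fell among the healthy rats. Its log2 fold change was 1.84 (SE 0.51, adjusted p = 0.0156). miR-450a-5p and miR-450b-5p had identical counts in each of the 6 libraries, 3, 2 and 4 in healthy and 13, 52 and 41 in control rats. Their sequences differ near the 3′ end alone, and they stand for 1 measurement, with a log2 fold change of 2.34 (SE 0.62, adjusted p = 0.0134). Without control rat 2, 1 member of the cluster was called, and without healthy rat 2, 3 were. The calls of miR-450a-5p, miR-450b-5p and miR-503-5p were lost in both cases.

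The list of the miR-17-92 cluster, which is active in proliferating cells, and its paralog clusters had 3 of 11 tested members called higher (27.3%, against 11.1% of all tested) and 0 lower, with a median log2 fold change of 0.59. The 3 were among the 6 tested miRNAs from Mir17 to Mir92a1, whose median was 1.64. miR-20a-5p stood at 129.6, 34.1 and 105 CPM in the healthy rats and 136.2, 493 and 373 CPM in the control rats, and its log2 fold change was 1.94 (SE 0.44, adjusted p = 0.00629). miR-19a-3p and miR-19b-3p, which differ by 1 base and whose counts differed by 0.918%, stood at 119, 20.8 and 100.4 CPM and 138, 386 and 257 CPM in the case of miR-19b-3p. Healthy rat 2 was the lowest of the 6 for these 3 miRNAs, and control rat 1 was near the other healthy rats. The calls of miR-19a-3p and miR-19b-3p were lost without control rat 2. Of the list of miR-15, miR-16 and related miRNAs, 2 of 7 tested members were called higher (28.6%, against 11.1% of all tested). These were miR-503-5p and miR-15b-5p, of which neither was called without control rat 2 or without healthy rat 2, and miR-16-5p differed by 0.51 (SE 0.27, adjusted p = 0.183). miR-34a-5p, a target of p53, stood at 1483, 615 and 1731 CPM and 2081, 3874 and 2559.9 CPM and rose by a log2 fold change of 1.16 (SE 0.30, adjusted p = 0.0132), a call lost without control rat 2. miR-210-3p, the miRNA most directly induced by hypoxia, stood at 23.9, 9.46 and 25.7 CPM and 18.8, 44.1 and 17.1 CPM with overlapping groups and differed by 0.46 (SE 0.45, adjusted p = 0.478).

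In the miR-30 family, 2 of 5 tested members were called higher (40%, against 11.1% of all tested). miR-30c-5p stood at 1930.1, 1056 and 2048 CPM and 2348, 2699.8 and 2499 CPM, and its log2 fold change was 0.59 (SE 0.20, adjusted p = 0.0378). miR-30b-5p stood at 102, 7.57 and 149 CPM and 189.8, 274 and 199 CPM, where healthy rat 2 held 4 counts against 30 and 64 in the other healthy rats, and its log2 fold change was 1.39 (SE 0.46, adjusted p = 0.0378). miR-30a-5p and miR-30e-5p, which are far more abundant, had log2 fold changes of 0.52 (SE 0.18, adjusted p = 0.0484) and 0.49 (SE 0.18, adjusted p = 0.0484), under the 1.5-fold limit. miR-23a-3p and miR-23b-3p, which differ by 1 base and share most counts, had log2 fold changes of 0.79 (SE 0.22, adjusted p = 0.0156) and 0.72 (SE 0.21, adjusted p = 0.0204). Without control rat 2, none of the called members miR-30b-5p, miR-30c-5p, miR-23a-3p and miR-23b-3p was called, and without healthy rat 2 miR-30c-5p and miR-23b-3p were not. The cluster partners of miR-23, miR-27a-3p and miR-27b-3p differed by 0.24 and 0.24 and were not called.

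Among glial markers, the oligodendrocyte miRNA miR-219a-5p stood at 910.5, 537 and 946 CPM in the healthy rats and 1596, 1428 and 1330.1 CPM in the control rats, with a log2 fold change of 0.87 (SE 0.29, adjusted p = 0.0392). The opposite arm, miR-219a-2-3p, stood at 3147, 4147 and 3330.2 CPM and 2619, 2666 and 2639 CPM and differed by -0.42 (SE 0.16, adjusted p = 0.0542), and miR-338-3p differed by 0.46 (SE 0.24, adjusted p = 0.170). The erythroid list, miR-451, miR-144 and miR-486, had 3 tested members, 0 called and a summed level of 44.3 to 81.7 CPM in healthy and 84.0 to 99.9 CPM in control rats. The liver miRNA miR-122-5p stood at 3.41, 121 and 4.67 CPM and 39.1, 327 and 39.4 CPM, so that healthy rat 2 and control rat 2 were both high, and it differed by 1.51 (SE 0.96, adjusted p = 0.258). Of the striated muscle list, miR-133a-3p was called, with 249, 257 and 210.2 CPM and 316, 573 and 445 CPM and a log2 fold change of 0.90 (SE 0.29, adjusted p = 0.0354), whereas miR-1-3p differed by 0.12 (SE 0.27, adjusted p = 0.785). Of the lymphocyte list, miR-150-5p was tested, and its level was 3399.8, 3246 and 3157 CPM and 2851, 3611 and 3045 CPM with overlapping groups. Of the choroid plexus and ependyma list, 10 were tested and 0 were called, with a median of -0.26. Of the oligodendrocyte list 1 of 3 tested members was called higher, and of the striated muscle list 1 of 6 (16.7%), against 11.1% of all tested. Both calls, miR-219a-5p and miR-133a-3p, were lost without control rat 2 and without healthy rat 2. The part of blood or vascular content in the immune result was not tested beyond these levels.

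The miRNAs of the Dlk1-Dio3 imprinted locus, a large cluster that is expressed from the maternal allele mainly in neurons, included 11 of the 29 miRNAs called lower. Of 79 listed members, 57 were tested, 11 were called lower (19.3%, against 8.29% of all tested) and 0 higher, and 47 of the 57 had negative values (82.5%, against 52% of all tested). The median log2 fold change was -0.45, against -0.03 for all tested, and the summed level was 32076 to 40571 CPM in healthy and 17519.8 to 26966 CPM in control rats. The range of the summed level did not overlap between the groups. Relative to the median of all tested miRNAs, the median of the locus was lower under every alternative, with differences of -0.22 to -0.56, but its own value turned positive, at 0.48, when the predicted miRNAs were kept in the scaling, where 3 members were called higher and the median of all tested was 0.92. Without control rat 2, 3 members were called lower, and in the fit of 6 libraries 1 was.

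miR-369-5p had the lowest adjusted p of the locus. It stood at 1698, 2040.2 and 1532 CPM in the healthy rats and 797, 592 and 756 CPM in the control rats, and its level in the control group was 40.7% of healthy, with a log2 fold change of -1.30 (SE 0.20, adjusted p = 0.000420). miR-382-5p stood at 2452, 2642 and 2497 CPM and 1451, 852 and 1276 CPM, and its log2 fold change was -1.08 (SE 0.21, adjusted p = 0.00229). For both miRNAs the 3 control rats were closer to each other than for the immune miRNAs, and control rat 1 lay clearly below the healthy rats. miR-770-3p stood at 143, 284 and 175 CPM and 103, 44.1 and 57.7 CPM and changed by -1.58 (SE 0.32, adjusted p = 0.00309), and its 5p arm changed by -1.46 (SE 0.46, adjusted p = 0.0282) on 5 to 11 counts per library. miR-541-5p stood at 321, 668 and 243 CPM and 181, 115 and 174 CPM, where healthy rat 2 was the highest, and its log2 fold change was -1.40 (SE 0.30, adjusted p = 0.00374). miR-485-5p, with 729.8, 1382 and 710.0 CPM and 588, 301 and 373 CPM, changed by -1.17 (SE 0.30, adjusted p = 0.0132). Among the most abundant members, miR-434-3p stood at 9903, 15996 and 7898 CPM and 7589, 5597 and 5515 CPM with a log2 fold change of -0.85 (SE 0.22, adjusted p = 0.0132), and miR-127-3p changed by -0.70 (SE 0.20, adjusted p = 0.0204). Neither was called without control rat 2 or without healthy rat 2. These 2 abundant miRNAs were singled out after their values were seen.

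**Figure D3:**
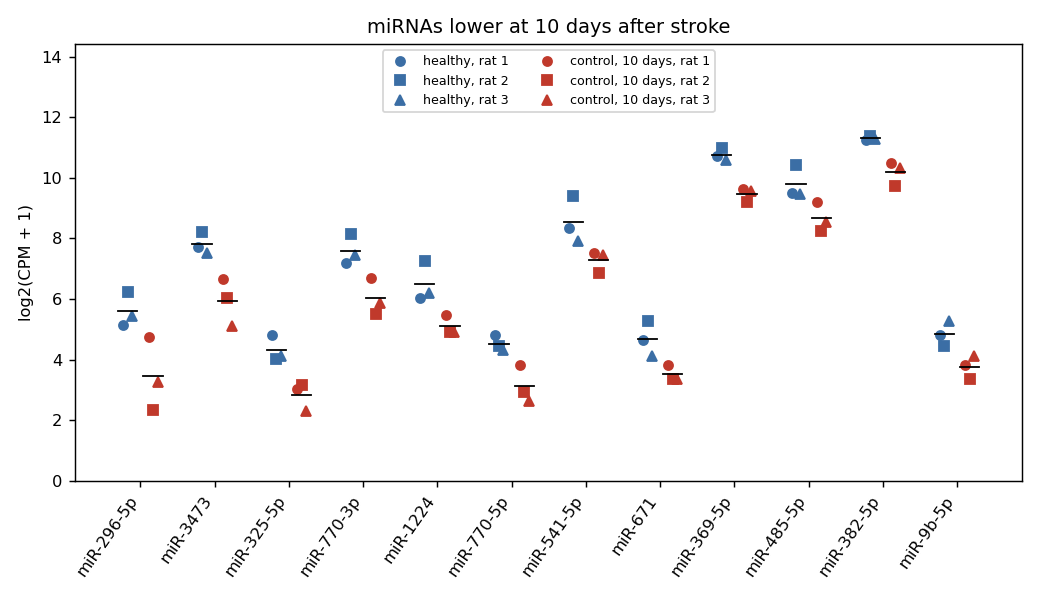
The 12 called miRNAs with the largest fall, non-overlapping groups and a mean of at least 10 CPM, as log2(CPM + 1) in each library (y axis). Blue marks are healthy rats, red marks control rats at 10 days, the shape gives the rat number and the bars are means of the plotted values. For miR-369-5p and miR-382-5p the 3 red marks sit close together below the blue ones, while healthy rat 2 (blue squares) is the highest blue mark for 9 of the 12.

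Of the remaining miRNAs with large falls, miR-296-5p stood at 34.1, 73.8 and 42.04 CPM in the healthy rats and 26.1, 4.01 and 8.53 CPM in the control rats, with a log2 fold change of -2.05 (SE 0.58, adjusted p = 0.0189). miR-3473 stood at 208, 295 and 182.2 CPM and 99.9, 64.1 and 33.4 CPM and changed by -1.83 (SE 0.47, adjusted p = 0.0132), and miR-1224 stood at 64.8, 151 and 72.4 CPM and 43.5, 29.4 and 28.9 CPM and changed by -1.54 (SE 0.34, adjusted p = 0.00554). miR-325-5p, miR-671 and miR-9b-5p had at most 25 counts in any library, and their log2 fold changes were -1.62, -1.35 and -1.08. The opposite arms miR-296-3p and miR-325-3p had positive log2 fold changes, 0.33 and 0.29, and were not called. Without healthy rat 2, miR-296-5p, miR-3473, miR-1224, miR-325-5p, miR-671 and miR-9b-5p were not called, nor were miR-541-5p, miR-485-5p and miR-770-5p of the locus. These 9 were also not called without control rat 2.

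Of the neuron-enriched list, 24 of 28 members were tested, 5 were called lower (20.8%, against 8.29% of all tested) and 2 higher (8.33%, against 11.1%), and the median log2 fold change was -0.30. The list lost its lower calls when control rat 2 was left out, with 0 called, and its median turned positive, at 0.63, when the predicted miRNAs were kept in the scaling. miR-128-3p, an abundant neuronal miRNA, stood at 46561, 43050.4 and 38379.5 CPM in the healthy rats and 32398, 22112 and 28845 CPM in the control rats, and its log2 fold change was -0.62 (SE 0.20, adjusted p = 0.0307). Without healthy rat 2 it was -0.53 and not called (adjusted p = 0.132 in edgeR), and without TMM it was -0.47 and not called. miR-124-3p, the most neuron-specific member, stood at 4508, 2716 and 3274 CPM and 3069, 1649.8 and 2491 CPM with overlapping groups and was not called, at -0.54 (SE 0.23, adjusted p = 0.0861). miR-138-2-3p stood at 126, 125 and 119 CPM and 81.1, 46.8 and 69.5 CPM and changed by -0.90 (SE 0.24, adjusted p = 0.0134).

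miR-132 and miR-212, neighbouring hairpins that are induced by neuronal activity through CREB, were called in the 5p arms and not in the 3p arms. miR-132-5p stood at 795, 1289 and 652 CPM in the healthy rats and 459, 506 and 379 CPM in the control rats, with a log2 fold change of -1.03 (SE 0.30, adjusted p = 0.0204), and miR-212-5p, whose groups overlapped, changed by -1.27 (SE 0.40, adjusted p = 0.0295). The 3p arms, which share the seed AACAGTC, did not move past the test. miR-132-3p stood at 2257, 1556 and 1630.1 CPM and 1753, 1786 and 1682 CPM and differed by -0.06 (SE 0.24, adjusted p = 0.866), and miR-212-3p differed by -0.16 (SE 0.34, adjusted p = 0.772). Healthy rat 2 was the highest healthy rat for both 5p arms and the lowest for both 3p arms. Without healthy rat 2 neither 5p arm was called, at log2 fold changes of -0.62 for miR-132-5p and -0.27 for miR-212-5p, and neither was called without control rat 2 or without control rat 3. The difference between arms was not tested. Among all 86 hairpins with both arms tested, 63 had the same sign in both arms, and of the 22 with a called arm, 20 did. In the 7 hairpins with both arms called, the arms moved in the same direction in 7. The 2 calls upward in the neuron-enriched list were miR-129-1-3p and miR-129-2-3p, which had identical counts and stand for 1 measurement, at 481, 592 and 458 CPM and 792, 989 and 770.0 CPM with a log2 fold change of 0.73 (SE 0.23, adjusted p = 0.0269). Both calls were lost without control rat 2, without control rat 3, without healthy rat 1 and without healthy rat 3.

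**Figure D4:**
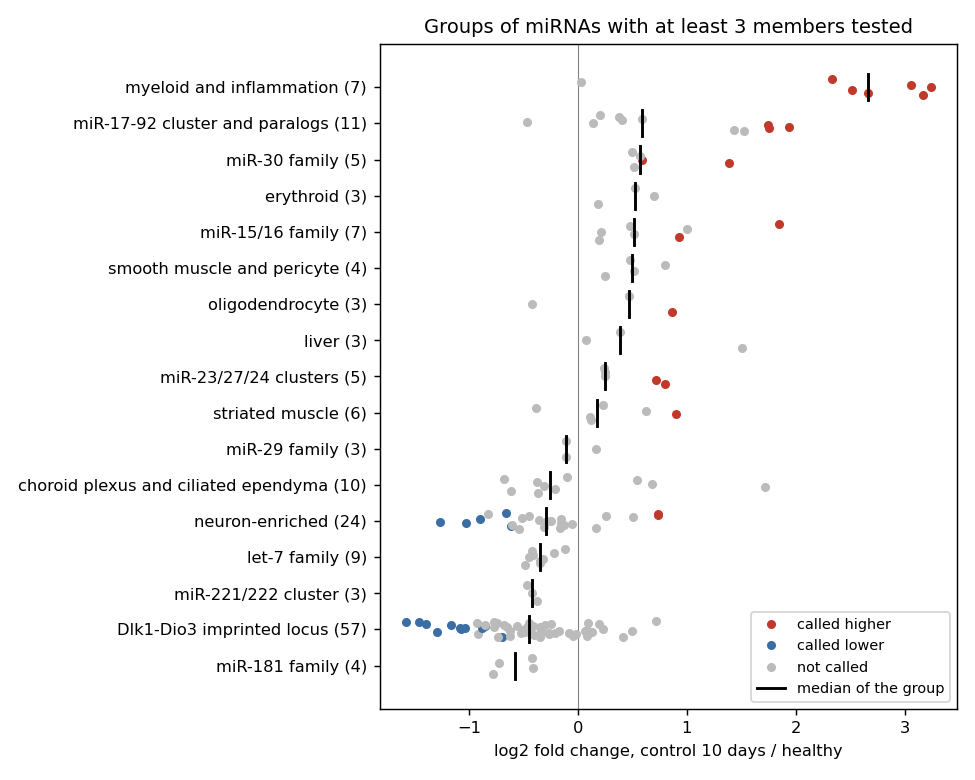
Log2 fold change (x axis) of each tested member of the groups with at least 3 members tested, with the number tested in parentheses. Red points are called higher, blue called lower and grey not called, and black bars are group medians. The myeloid and inflammation group has its median at 2.66, and the Dlk1-Dio3 group has 11 blue points and a median of -0.45.

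Some families had values of a single sign and no calls in the fit reported here. The let-7 family had 9 of 9 tested members with negative values, a median of -0.35 and 0 called, the miR-181 family 4 of 4 negative, a median of -0.58 and 0 called, and the cluster of miR-221 and miR-222 3 of 3 negative, a median of -0.42 and 0 called. Of all tested miRNAs, 52% had negative values. The counts of let-7a-5p and let-7c-5p, which differ by 1 base, differed by 4.15%, so the 9 may not be separate measurements. These 3 medians turned positive when the predicted miRNAs were kept in the scaling, and that of miR-181 also without healthy rat 2. With the GC correction, 4 let-7 members were called lower, and without healthy rat 3 1 was. The miR-181 family had 1 or 2 members called lower without healthy rat 1 or 3, with no filter and with the GC correction. The miR-29 family had a median of -0.11, the liver list 0.39 and the cluster of miR-183, miR-96 and miR-182, with 2 tested members, -0.64, each with 0 called. The sign of the miR-29 median changed on library totals without TMM, without healthy rat 3, without control rat 2 and in the fits on TPM. It also changed with predicted miRNAs kept and with 1 of each pair of miRNAs with shared counts. That of the miR-183 cluster changed in the fits on TPM and with predicted miRNAs kept, and the liver median was -0.08 without control rat 2.

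The base composition of the mature sequences is given as a description, and its part in the calls was not tested beyond the corrected fit. The median GC content was 42.9% for the 39 miRNAs called higher, 54.5% for the 29 called lower and 47.8% for all tested. In healthy rat 2, the log2 level rose by 0.0186 per percent GC relative to the mean of the 21 brain libraries, and in control rats 1 to 3 it changed by -0.00648, -0.0147 and -0.0197. With a linear correction for GC content in each library, 41 were called higher and 31 lower, 56 of them shared with the 68, and the median of the Dlk1-Dio3 members was -0.47.

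The change at 10 days was set beside the other times after stroke. Comparisons with healthy rats share the same 3 healthy libraries, and those with control rats at 10 days share these. Against control rats at 4 days, 0 of 350 miRNAs were called by edgeR at 10 days, 34 had an unadjusted p under 0.05 and 1 was called by DESeq2. Against 10 days, 107 were called at 31 days (30.6%), 63 higher (18%) and 44 lower (12.6%). On library totals without TMM that split was 28 higher and 93 lower. miR-21-5p stood at 14131, 11893 and 9579.7 CPM in the control rats at 4 days and 1781, 2158 and 1336 CPM at 31 days, so that it was high at 4 days and overlapped the healthy rats at 31 days. miR-142-5p stood at 256, 291 and 326 CPM at 4 days and 68.9, 86.8 and 47.0 CPM at 31 days, and miR-223-3p at 789, 567 and 332 CPM and 109, 77.2 and 89.5 CPM. In contrast, miR-146a-5p stood at 951, 883 and 854 CPM at 4 days and 2274, 3462 and 1301 CPM at 31 days, and miR-190b-5p at 140.3, 162 and 253 CPM and 399.7, 1098 and 457 CPM, both higher at 31 days than in any healthy rat.

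The miRNAs with lower levels at 10 days were followed in the same way. miR-369-5p stood at 553, 765 and 764 CPM at 4 days and 2014, 1405 and 2059 CPM at 31 days, and miR-382-5p at 1151, 1301 and 1203 CPM and 2398, 2264 and 3145 CPM, so that both were low at 4 and 10 days and overlapped or reached the healthy range at 31 days. let-7a-5p stood at 73049.5, 63486 and 71954 CPM at 4 days and 149893, 139907 and 128543 CPM at 31 days. miR-132-5p stood at 388, 509 and 471 CPM and 424, 364 and 672 CPM, and its log2 change from healthy at 31 days was -0.91 (adjusted p = 0.0252). The median log2 change of the 57 Dlk1-Dio3 members from healthy took the values -0.22, -0.45 and -0.19 in order of time, and the 7 myeloid members 2.72, 2.66 and 0.76. Of the 57, 7 were called lower and 1 higher than healthy at 4 days, and 13 lower and 3 higher at 31 days. The 24 tested neuron-enriched members had medians of -0.24, -0.30 and -0.52, with 9 called lower and 0 higher at 31 days. These counts are given without the share of all tested miRNAs.

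**Figure D5:**
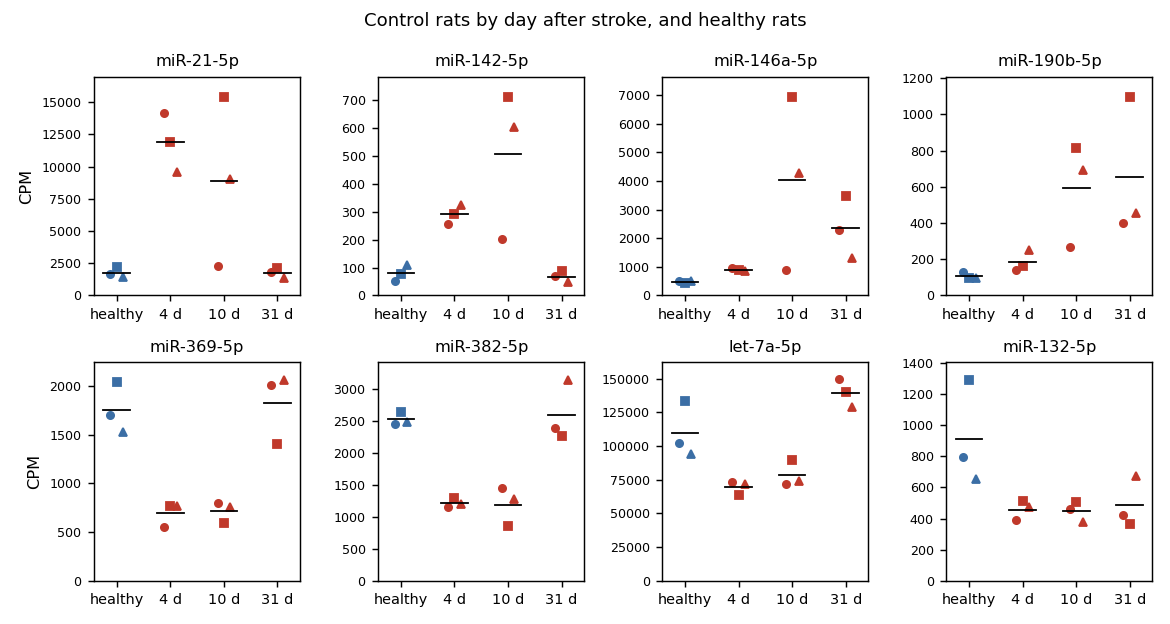
CPM (y axis, from 0) of 8 miRNAs in each brain library of healthy rats (blue) and control rats by day after stroke (red, x axis), with the shape giving the rat number and bars the means. miR-21-5p is high at 4 and 10 days and back at 1336 to 2158 CPM at 31 days, while miR-190b-5p is at 399.7 CPM or more at 31 days in each rat.

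At 10 days, 0 of 350 miRNAs were called between rats given hNSCs and control rats by edgeR or DESeq2, and 22 had an unadjusted p under 0.05. In the hNSC group, miR-21-5p stood at 2448, 8218 and 3868 CPM and miR-146a-5p at 1022, 3332 and 1246 CPM, and the log2 differences from control were -0.88 (SE 0.47) and -1.10 (SE 0.56). With SEs of this size a 1.5-fold difference was not detectable for these miRNAs.

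In plasma EVs of the same groups, 0 of 309 tested miRNAs were called between control rats at 10 days and healthy rats by edgeR or DESeq2, and 23 had an unadjusted p under 0.05 in edgeR. miR-142-3p, high in blood cells, stood at 42781, 34315 and 39063 CPM in healthy and 70687, 27536 and 53775 CPM in control plasma, and miR-146a-5p at 4055, 3422 and 5981 CPM and 1609.7, 3075 and 3049 CPM. The plasma values of both groups overlapped for miR-142-3p, and for miR-146a-5p every control rat lay below every healthy rat. A test of the difference between brain and plasma changes, with the rat number as a block, called 7 of 409 miRNAs (1.71%), each with the change in brain above that in plasma. The plasma log2 changes of the 7 were negative, between -0.10 and -1.34, and none was called. miR-193a-5p, 1 of the 7, was not tested in the brain fit. Among the 7 were miR-146a-5p, with a log2 change in brain that exceeded that in plasma by 3.55 (SE 0.72, adjusted p = 0.0164), miR-142-5p by 3.06 (adjusted p = 0.0319), miR-155-5p by 4.03 (adjusted p = 0.0472) and miR-190b-5p by 2.51 (adjusted p = 0.0472). Without control rat 2 or control rat 3, edgeR called 0, with 33 and 32 at an unadjusted p under 0.05, and without healthy rat 1 the count was 1.

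The mRNAs of 44 tested host genes, which contain miRNA hairpins in their transcripts, were examined in the long RNA libraries of the same brain EV samples. None of them was called in edgeR or DESeq2, against 83 of all 14515 tested mRNAs in edgeR (0.572%), and 7 had an unadjusted p under 0.05 in each tool. The share of all tested mRNAs at that unadjusted p was not computed, so the 7 have no background. Among the 7 in edgeR, Copz2 stood at 0, 0 and 0 CPM in healthy and 0, 17.7 and 0 CPM in control rats. Ska2, also among them, stood at 0, 0 and 0 CPM and 9.37, 0 and 0 CPM. Pde2a, the host of miR-139, stood at 874, 428 and 559.9 CPM in healthy and 427, 179 and 366 CPM in control rats, with a log2 fold change of -0.94 (SE 0.31, adjusted p = 0.202), and this pair was singled out after its values were seen. In the miRNA libraries, miR-139-3p was called lower, at 303, 428 and 285 CPM and 223, 151 and 154 CPM with a log2 fold change of -0.95 (SE 0.28, adjusted p = 0.0205), a call lost without control rat 2 and without healthy rat 2.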

How the data were processed

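Small RNA of brain and plasma EVs had been sequenced with a kit that tags each molecule with a UMI, and the long RNA of the same EVs separately. The authors removed other RNA classes with Bowtie, matched reads to miRBase on Rnor_6.0 and deposited UMI counts per miRNA and a TPM table made from them; the mRNA table holds read counts as deposited by the authors. The deposited FPKM values were not used. The 21 brain miRNA libraries (7 groups, 3 rats each) entered 1 quasi-likelihood fit (R 4.3.3, edgeR 4.0.16) after filterByExpr and TMM scaling. All adjusted p-values are from edgeR with Benjamini-Hochberg adjustment over all tested features, and calls need an adjusted p under 0.05 and over 1.5-fold. Predicted miRNAs were left out of the fit. DESeq2 1.42.0 and limma 3.58.1, the latter on log2(TPM + 1), served as alternatives. The 6 libraries held 343498 to 1711169 UMI counts, known and predicted. On the scale of the known-miRNA counts after TMM, 3 counts equal 1.97 to 10.2 CPM. The scripts were tested on simulated data. For brain and plasma, equal numbers within a group were taken as 1 rat, which the labels do not state outright.

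The members, lists and tests were chosen with earlier results of these data known. Named miRNAs were the 5 most abundant, the 12 called with the largest change in each direction, and the members with the lowest p in each list. The 12 were taken among those with non-overlapping groups and a mean of at least 10 CPM. Other miRNAs, further list members included, were chosen after their values were seen, as were all paralogs and opposite arms set beside a named miRNA. Sequences came from the deposited mature sequences, and RefSeq GRCr8 gave names and neighbouring hairpins (326 of 350 tested miRNAs matched).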

Additional observations from a re-analysis of the deposited data

Results flagged for a closer look

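The change from healthy differed between 10 and 31 days after stroke for 107 miRNAs, by edgeR's test of the direct contrast, in which the healthy libraries cancel. The listing below covers miRNAs named for level or size of change and the members with the lowest p in each list, not the other list members. Of those called, the log2 difference, as 31 days minus 10 days, was positive for let-7a-5p 0.83, let-7c-5p 0.85, let-7b-5p 0.91, miR-296-5p 2.86, miR-770-3p 1.91, miR-1224 1.61, miR-770-5p 2.04, miR-541-5p 1.07, miR-369-5p 1.35, miR-485-5p 1.45, miR-382-5p 1.12, miR-204-5p 1.37, miR-34b-5p 1.04, miR-34c-5p 1.13, let-7e-5p 0.74, let-7f-5p 0.60, let-7i-5p 0.77, miR-222-3p 0.64, miR-221-3p 0.60, miR-183-5p 4.53 and miR-182 3.72. It was negative for miR-142-5p -2.88, miR-223-3p -1.76, miR-21-5p -2.34, miR-150-5p -1.35, miR-126a-5p -1.02, miR-122-5p -3.35, miR-192-5p -1.08 and miR-16-5p -0.79. The values of miR-183-5p and miR-182 rest on 1 library, control rat 1 at 31 days, with 510 and 367 CPM against at most 25.3 CPM in the other rats compared.

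The change at 10 days differed between brain and plasma EVs for 7 miRNAs by edgeR's test of that difference. For those covered by the same listing, the log2 change in brain minus that in plasma was miR-155-5p 4.03, miR-146a-5p 3.55, miR-142-5p 3.06, miR-190b-5p 2.51 and miR-122-5p 3.30. Control rats 2 and 3 decide this count, since leaving out either gave 0. The causes were not tested.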

How the results depend on the processing

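Between control rats at 10 days and healthy rats, 68 miRNAs were called. The count was 11 with the 6 libraries alone, 122 with predicted miRNAs kept (121 higher, 1 lower) and 108 at an unadjusted p under 0.05. It was 44 without healthy rat 2 and with a correction for GC content, an alternative chosen after seeing the data. The fit of 6 libraries also has fewer residual degrees of freedom, and the part of this in its count was not tested. Leaving out each rat gave 14 to 96 calls. Between 10 and 4 days, 0 became 1 with DESeq2, 8 with no filter and 0 to 3 when rats were left out. Between hNSCs and control, 0 became 6 with no filter. Brain against plasma, 7 became 14 without the rat block and 0 to 13 when rats were left out. The other 14 alternatives for the main count stayed within 1.5 times, among them DESeq2 with 73, but the split of 39 higher and 29 lower became 54 and 20 without TMM, 55 and 12 by limma on log2(TPM + 1), 54 and 12 on log2(TPM + 0.1) and 121 and 1 with predicted miRNAs kept, with medians of all tested at 0.10, 0.14, 0.14 and 0.92. The 107 calls between 31 and 10 days became 53 higher and 60 lower by DESeq2, 48 and 68 with no filter and 28 and 93 without TMM, against 63 and 44. The log2 fold change of miR-138-2-3p turned to 0.058 with predicted miRNAs kept, where it was no longer called. The replicate block, for numbers that pair no rats across groups (deviations from the group means correlated by 0.03, 0.21 and 0.11), gave 73 calls, 67 of them shared with the 68. The causes of these shifts were not tested. Depth limits the miRNAs with few counts, such as miR-155-5p and miR-339-3p in the healthy rats.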
